A study of Mus musculus with 2 samples.

Results

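The genes of the MHC class II pathway were described in single-cell RNA sequencing of the lungs of tumor-bearing mice that received nanoparticles or saline. Members were the matrix rows whose symbol was H2-Aa, H2-Ab1, H2-Eb1, Cd74, Ciita, H2-DMa, H2-DMb1, H2-DMb2, H2-Oa or H2-Ob, and all 10 were found among the 32285 genes of the matrix. Female BALB/cJ mice, 12 weeks old, were inoculated with 100000 4T1 cells, a mouse mammary carcinoma line that spreads to the lungs, and both groups carried this tumor. Each group received 5 intravenous doses, 1 every 3 days from day 1, of either saline or cargo-free poly(lactide-co-glycolide) nanoparticles (NP), and lungs were collected on day 14. The comparison asks how the lung cells of NP-treated mice differ from those of saline-treated mice. Each group is 1 library, a pool of 4 mice by the labels, and the methods give another number of mice. With 1 library per group there is no test between the groups, and every ratio below compares these 2 libraries and has no replicate check. Pairs of values are given with saline first and NP second. Intervals are 95% intervals and cover counting error only.

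MHC class II molecules are pairs of an alpha and a beta chain that display peptides from engulfed material to CD4+ T cells. Dendritic cells, B cells and macrophages are their classical carriers, and capillary endothelium and alveolar type 2 epithelium of the lung are also known to carry them. H2-Aa and H2-Ab1 encode the alpha and beta chains of I-A, and H2-Eb1 the beta chain of I-E. Cd74 encodes the invariant chain, which fills the peptide groove during assembly and leads the complex to endosomes. H2-DMa with H2-DMb1 or H2-DMb2 forms H2-DM, which exchanges the last piece of the invariant chain for peptide, and H2-Oa with H2-Ob forms H2-O, an inhibitor of H2-DM. Ciita encodes the transactivator that binds no DNA itself and is recruited to the promoters of these genes, and it is induced by interferon gamma in cells that do not carry class II at rest.

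Positions and promoter letters are given first, since the members are known targets of 1 regulator. In GRCm38, 8 members lie close together on chromosome 17, from H2-Oa (chr17:34092340-34095234) to H2-Eb1 (chr17:34305867-34316674), with H2-Aa (chr17:34282744-34287823) and H2-Ab1 (chr17:34257689-34269419) between them. Ciita lies on chromosome 16 (chr16:10480059-10528418). The RefSeq promoter table of GRCm38.p6 held an entry for 7 of the 10 members. The following windows cover bases 130 to 31 before the annotated start and are printed 5′ to 3′ on the gene's strand because class II promoters are known for an X box followed by an inverted CCAAT (Y) box. Capitals mark a match on either strand to GATTGG, the inverted CCAAT letters, or to AACNNATG, the end of a form of the X box. The letters do not overlap each other in these windows.
H2-Aa (chr17:34287854-34287953, minus strand): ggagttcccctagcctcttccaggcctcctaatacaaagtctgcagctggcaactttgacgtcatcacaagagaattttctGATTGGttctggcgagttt
H2-Eb1 (chr17:34305737-34305836, plus strand): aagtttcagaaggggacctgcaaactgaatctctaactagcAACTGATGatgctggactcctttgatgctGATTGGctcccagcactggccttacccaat
H2-DMb2 (chr17:34145119-34145218, plus strand): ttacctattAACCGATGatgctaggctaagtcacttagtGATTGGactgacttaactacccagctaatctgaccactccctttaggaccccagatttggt
H2-Ob (chr17:34238775-34238874, plus strand): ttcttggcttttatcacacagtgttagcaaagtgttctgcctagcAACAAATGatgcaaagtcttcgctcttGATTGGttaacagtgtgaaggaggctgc
Both sets of letters were found in H2-Eb1, H2-DMb1, H2-DMb2 and H2-Ob, GATTGG alone in H2-Aa and H2-Oa, and neither in the windows of H2-DMa. The X box letters began 89, 92, 121 and 85 bases before the start in H2-Eb1, H2-DMb1, H2-DMb2 and H2-Ob, and GATTGG 60, 62, 91 and 58 bases before it. The H2-DMb2 start of this table lies inside the gene's GENCODE span (chr17:34143307-34151555). The H2-DMa windows likewise lie inside the span of H2-DMa (chr17:34119541-34139101). In H2-DMb1, 89 of the 100 bases of the window, its matches among them, lie in an annotated exon of the gene. Over the same window of 32851 mouse promoters, GATTGG was present in 8.36%, AACNNATG in 3.09% and both in 0.204%. AACNNATG was shortened from a longer pattern after the members' windows had been read. Its matches, alone or with GATTGG, are therefore not read against these shares. Stretches of H2-DMb1 and H2-DMb2 lined up on GATTGG, 50 bases before it and 30 from its first base, were identical at 70 of 80 bases (87.5%). The H2-DMb2 stretch began upstream of its window. These matches are descriptions of the letters in the reference strain and not measured binding.

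Barcodes were selected by 500 to 5000 detected genes and a mitochondrial part of the UMIs under 7.5%, after which 8662 saline and 8333 NP cells remained, with a median of 6474.5 and 6008 UMIs (unique molecular identifiers, each a counted mRNA molecule). The 2 libraries shared 21 cell barcodes. Cells were clustered without the 10 members, and each class name below stands for a class rebuilt from marker genes. It is to be read as "like" that cell type, such as Cdh5, Pecam1 and Cldn5 for endothelial cells, Ccr2, Ly6c2 and F13a1 for classical monocytes, Flt3, Xcr1 and Clec9a for conventional dendritic cells, Cd79a and Ms4a1 for B cells, and Sftpc and Slc34a2 for alveolar type 2 cells. A difference from the study may come from these rebuilt names, and 330 saline and 755 NP cells were left without one. Levels are given as counts scaled to 1000000 UMIs of the class (CPM), with UMIs summed over its cells. Levels of different genes were not compared, since the mice are BALB/cJ, the reads were counted on a reference of another strain, and capture differs between transcripts.

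**Figure D1:**
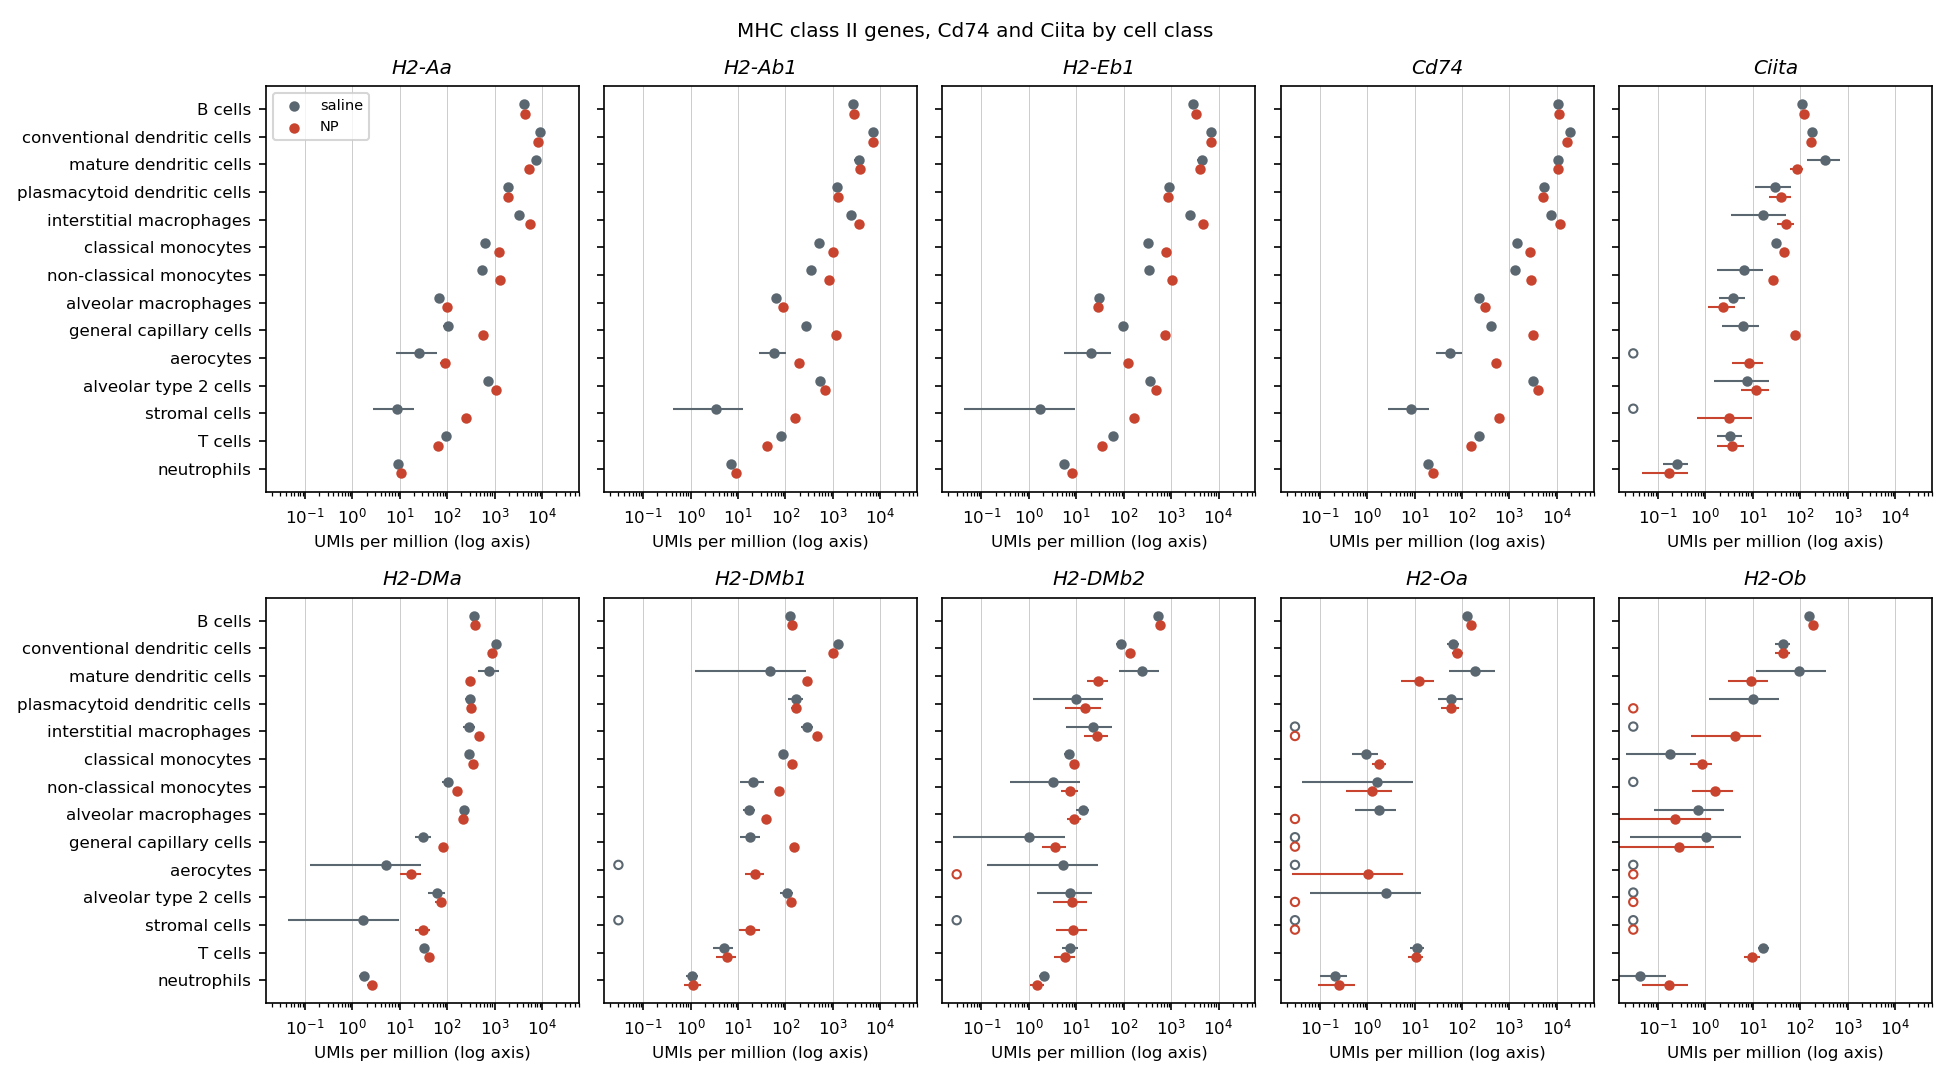
Level of each of the 10 members in 14 cell classes of the saline and NP libraries, in CPM on a log axis. Bars are 95% exact Poisson intervals, and open points at the left edge mark a class with 0 UMIs. Dendritic cells and B cells lie to the right in both libraries, and the NP points of the endothelial classes lie to the right of the saline points for the 3 chain genes, Cd74 and H2-DMb1.

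The chain genes H2-Aa, H2-Ab1 and H2-Eb1 were summed to order the classes. In the saline library the highest level was in conventional dendritic cells, at 23090 CPM, followed by mature dendritic cells at 15580 (4 cells), B cells at 9673, interstitial macrophages at 8146 (16 cells) and plasmacytoid dendritic cells at 4055. Next came alveolar type 2 cells at 1613, classical monocytes at 1469, non-classical monocytes at 1231 and general capillary cells at 466. Dendritic cells, B cells and interstitial macrophages thus stood above the other classes in pooled level. Counting intervals of neighbours in this order did not overlap, those of alveolar type 2 cells (1492 to 1741) and classical monocytes (1447 to 1491) being the closest. These intervals leave out the spread between cells, so the order is one of pooled counts only. The large-vessel endothelial cells (178, interval 99.6 to 294), alveolar macrophages (163, 148 to 178) and mesothelial cells (140, 106 to 182) had overlapping counting intervals. Stromal cells at 13.8 and lymphatic endothelial cells at 28.4 (1 UMI) were lowest among the lung tissue classes. In the NP library the order began with conventional dendritic cells at 22450, interstitial macrophages at 13740, mature dendritic cells at 13060, B cells at 10560 and plasmacytoid dendritic cells at 4118. Non-classical monocytes at 3187, classical monocytes at 3046 and general capillary cells at 2449 then stood above alveolar type 2 cells at 2252.

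Among the classes with the most cells (neutrophils, monocytes, B cells, T cells and endothelial cells), endothelial cells had the largest ratio between the libraries. H2-Aa had 108 UMIs in 293 saline cells and 2318 UMIs in 1102 NP cells, or 83.1 and 453 CPM, a log2 ratio of NP over saline of 2.45 (2.17 to 2.74). H2-Ab1 was at 218 and 912 CPM (log2 2.07, 1.89 to 2.24). H2-Eb1 was at 80.1 and 580 CPM (log2 2.86, 2.57 to 3.15). All 3 chains were therefore over 4-fold higher in the NP library, and the sum was at 381 and 1945 CPM (log2 2.35, 2.22 to 2.48). Of the 10 members, 7 had at least 200 UMIs over both libraries in endothelial cells, and all 7 were at least 2-fold higher in the NP library, while 0.804% of the 4974 genes with as many UMIs were. The median log2 ratio of those genes was -0.05. A member passes this filter more easily where it is high in either library, so the 7 are not a random draw of the 10. Ciita and H2-DMb1 had so few saline UMIs that passing the filter fixed their call, and H2-DMa would not have passed at its saline level. H2-Aa, H2-Ab1, H2-Eb1 and Cd74 would have passed at theirs. The count of 7 is therefore not read against that share.

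The share of endothelial cells with a UMI of any chain was 49.8% (146 of 293) with saline and 87.2% (961 of 1102) with NP. Median depth was close, at 3751 and 3723 UMIs per cell. With each cell thinned to 1000 UMIs, which leaves out 4 and 21 shallower cells, the shares were 26.3% (interval 21.3 to 31.8) and 71.4% (68.6 to 74.1). Neutrophils, which should carry little class II message, gave 1.53% and 3.93% after the same thinning and 7.92% and 16.3% without it, at median depths of 6050 and 5232 UMIs. T cells gave 2.73% and 5.24% after thinning, at 6309.5 and 6509.5 UMIs. Both endothelial shares lay above these background shares. Free RNA, read from barcodes with under 50 UMIs, held more chain message in the NP library (2051 CPM) than in the saline library (789). Its estimated part of the UMIs of endothelial cells was 3.09% and 2.57%, and subtracting it gave a log2 ratio of the chain sum of 2.40.

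The endothelial subclasses did not stand alike. General capillary cells, which supply most of the class (242 saline and 901 NP cells), had chain levels of 466 and 2449 CPM (log2 2.39, 2.26 to 2.53). Aerocytes, the large capillary cells of gas exchange that express Car4 and Ednrb, had 103 and 411 CPM (32 and 141 cells, log2 1.99, 1.35 to 2.72). The interval of the NP level of aerocytes overlapped that of the saline level of general capillary cells. Large-vessel endothelial cells were at 178 and 1342 CPM from 12 and 38 cells, and lymphatic endothelial cells held 1 and 42 chain UMIs in 7 and 22 cells. Per cell, the median of general capillary cells was 2.00 chain UMIs per 10000 with saline and 22.7 with NP, and the share of cells at 0 was 43.8% and 4.77%. No single cell decided these values, since the highest endothelial cell held 22 of 495 saline and 63 of 9942 NP chain UMIs.

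**Figure D2:**
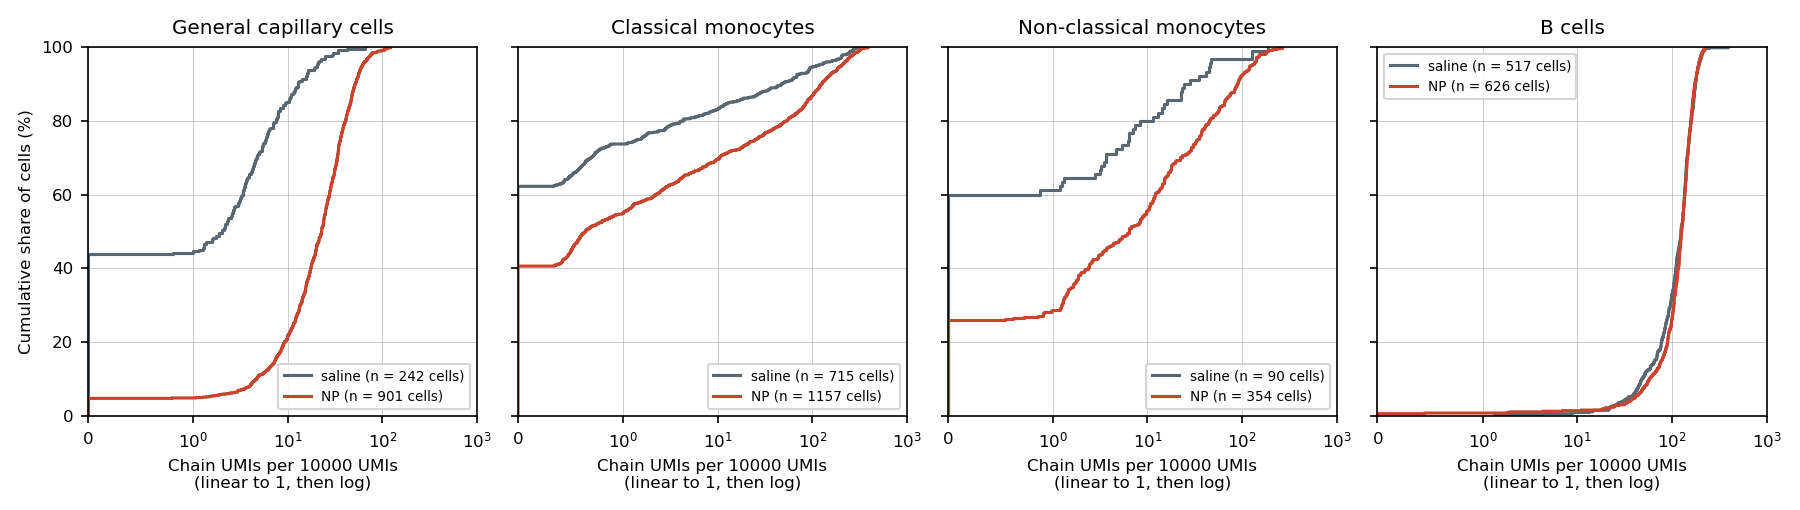
Cumulative share of cells against chain UMIs (H2-Aa, H2-Ab1 and H2-Eb1) per 10000 UMIs of the cell, for general capillary cells (242 saline, 901 NP), classical monocytes (715, 1157), non-classical monocytes (90, 354) and B cells (517, 626). The x axis is linear to 1 and logarithmic above. The NP curve lies to the right over nearly the whole range in general capillary cells, the monocyte curves start at a large share of cells at 0, and the B cell curves lie on each other.

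Monocytes carried the second pattern, a class in which 62.0% of saline and 37.2% of NP cells had no chain UMI. H2-Aa was at 624 and 1271 CPM (log2 1.03, 0.99 to 1.06), H2-Ab1 at 499 and 966 (log2 0.95, 0.91 to 0.99) and H2-Eb1 at 334 and 828 (log2 1.31, 1.26 to 1.36). The sum was at 1457 and 3065 CPM (log2 1.07, 1.05 to 1.10). Of 8 members with at least 200 UMIs in monocytes, 2 were at least 2-fold higher in the NP library, H2-Aa and H2-Eb1, beside 1.63% of 8184 genes. Any chain was detected in 38.0% of 805 saline and 62.8% of 1511 NP monocytes, at median depths of 15138 and 14913 UMIs. The 10% of cells with the most chain UMIs held 88.0% of the chain UMIs with saline and 65.2% with NP. Non-classical monocytes, the patrolling subset with Cd300e and Ace, had the larger ratio of chain sums (1231 and 3187 CPM, log2 1.37, 1.27 to 1.48), and classical monocytes had 1469 and 3046 (log2 1.05, 1.03 to 1.08). In non-classical monocytes 5 of 6 members passed 2-fold higher, beside 1.94% of 2883 genes, and in classical monocytes 2 of 8, beside 1.24% of 7914. H2-DMb1, among the 5, reached 200 UMIs in non-classical monocytes only through the NP library, which fixed its call.

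The monocyte ratio moved with the mix of clusters. The cluster led by Cxcl9, Marcksl1 and Aif1 held 8.45% of saline and 21.8% of NP monocytes and 59.6% and 66.6% of their chain UMIs. Within it, the chain level was lower in the NP library, at 10560 and 8999 CPM (log2 -0.23, -0.26 to -0.20). In the saline library the cluster led by Chil3, Tpm1 and Saa3 held 27.8% of monocytes, and in the NP library it held 3.71%. Most of the other clusters were higher in the NP library, such as the one led by Retnlg, S100a9 and Ngp (1174 and 3731 CPM) and the one led by Prtn3 and Vcan (29.8 and 72.9). Retnlg, S100a9 and Ngp are also neutrophil markers. A cluster of 3 saline and 15 NP cells led by Ly6a and Epas1, of which Epas1 is also an endothelial marker, was lower (log2 -1.40). With both libraries weighted to the saline shares of the clusters, the log2 ratio of the monocyte chain sum was 0.28 in place of 1.07. The other monocyte values, such as those of Cd74, Ciita and co-detection, were not weighted in this way.

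**Figure D3:**
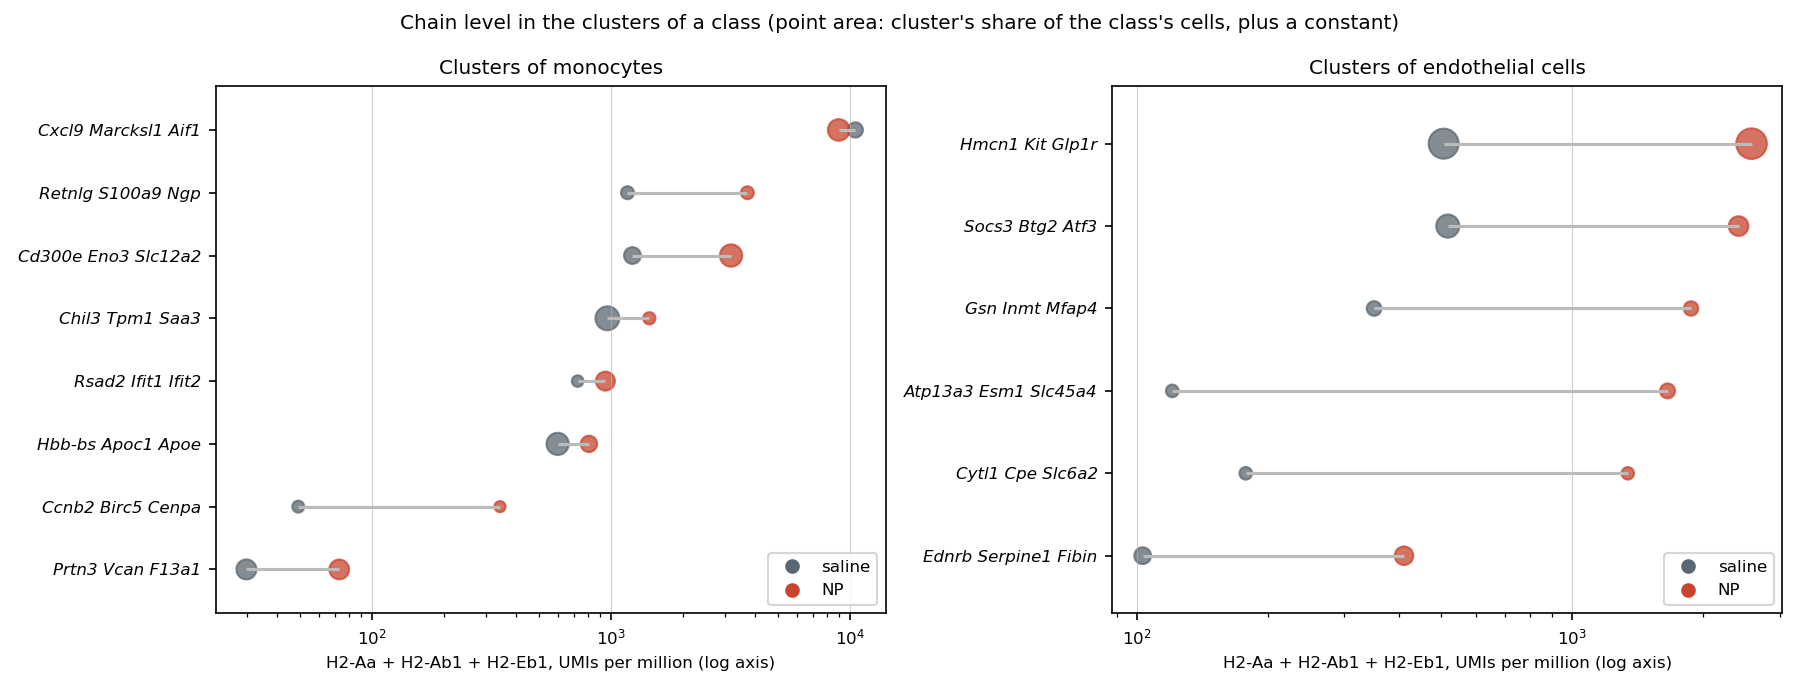
Chain level (H2-Aa, H2-Ab1 and H2-Eb1, CPM) of each monocyte and endothelial cluster with at least 10 cells in both libraries, saline beside NP. Point area follows the cluster's share of the cells of its class plus a constant. The Cxcl9 cluster of monocytes is the highest in both libraries and larger in the NP library, and each endothelial cluster drawn is higher in the NP library.

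In endothelial cells the clusters gave another picture. All 8 clusters had a higher chain level in the NP library, with log2 ratios from 1.99 to 3.78. Some rested on few saline UMIs. The highest ratio (2.65 to 5.23) came from 6 saline chain UMIs in 12 cells, and the lymphatic cluster had 1 saline chain UMI. A general capillary cluster led by Gbp5, Iigp1 and Igtp, genes known to be induced by interferon gamma, held 3 saline and 132 NP cells. It was at 553 and 3350 CPM, the saline value resting on 10 chain UMIs. The general capillary cluster led by Hmcn1 and Kit, with 133 and 464 cells, was at 507 and 2582 CPM. One general capillary cluster (21 and 67 cells) was led by Gsn, Inmt and Mfap4, of which Inmt is also a stromal marker.

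Dendritic cells and B cells, professional antigen-presenting cells with high levels in both libraries, had chain ratios of opposite sign, neither past 2-fold. In all dendritic cells the chain sum was at 22870 CPM in 47 saline cells and 18410 in 81 NP cells (log2 -0.31, -0.34 to -0.28). Mature dendritic cells, named from a marker list that holds Ccr7 and Fscn1, were 4 of the 47 saline and 33 of the 81 NP cells. Their leading genes held Ccl5 and Il4i1 of that list, beside Ms4a6d, Ms4a6c and S100a4, which also lead monocyte clusters. The leading genes of conventional dendritic cells likewise held Irf8 and Naaa of their list, beside Lyz1, S100a4 and Ccr2. In conventional dendritic cells alone (43 and 48 cells) the levels were 23090 and 22450 (log2 -0.04, -0.07 to -0.01), and with cells classed by their own marker score the value for all dendritic cells was 0.19. Plasmacytoid dendritic cells, from 18 and 31 cells, were at 4055 and 4118. None of 7 members measured in dendritic cells was 2-fold higher, beside 7.85% of 1402 genes, or 2-fold lower, beside 1.07%, and none of 7 in conventional dendritic cells, beside 0.628% of 955.

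B cells held the chains in nearly every cell of both libraries. The chain sum was at 9673 and 10560 CPM in 517 and 626 cells (log2 0.13, 0.11 to 0.15), with H2-Aa at 4172 and 4465, H2-Ab1 at 2621 and 2821 and H2-Eb1 at 2880 and 3276. The median cell had 124.7 and 126.7 chain UMIs per 10000. All 10 members were measured here, and none was 2-fold higher, beside 0.15% of 4006 genes.

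The macrophage classes differed from each other in level. Interstitial macrophages, with C1qa and C1qb, were at 8146 and 13740 chain CPM (log2 0.75, 0.67 to 0.84) in only 16 and 35 cells. Alveolar macrophages, with Marco and Siglecf, were at 163 and 214 (166 and 224 cells, log2 0.40, 0.23 to 0.56), about the level of large-vessel endothelium in the saline library. One cell held 17.9% of the saline and another 13.4% of the NP chain UMIs of alveolar macrophages. H2-DMb1 was the 1 of 6 measured members past 2-fold in them (16.99 and 39.5 CPM), beside 0.101% of 4929 genes. At its saline level in both libraries H2-DMb1 would not have passed the UMI filter, so this count is not read against that share.

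Stromal and epithelial cells are the tissue classes in which the values rest on few cells. Stromal cells held 8 chain UMIs in 108 saline cells and 537 in 178 NP cells, but 1 NP cell held 341 of them. Without the highest cell of each library the counts were 5 and 196, or 8.69 and 214 CPM (log2 4.62). H2-Aa (5 and 236 UMIs) and Cd74 (5 and 560) were the 2 members measured, and both passed the filter of 200 UMIs through the NP library alone. Their difference was thereby fixed, and their count is not read against the 1.06% of 1133 genes past it. The thinned share of stromal cells with a chain was 1.96% and 5.85%, close to the T cell background of 2.73% and 5.24%, so these shares are read as background. B cell markers summed to 196 and 360 CPM in stromal cells, with 8 of 13 at 0 with saline and 1 of 13 with NP, and their part in the result was not tested. With a mitochondrial limit of 5% the log2 ratio of the stromal chain sum was 0.99, and that of H2-Aa turned to -0.45, on 3 saline UMIs.

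Epithelial cells were at 983 and 2164 chain CPM (log2 1.14, 1.01 to 1.27) in 53 and 51 cells. Alveolar type 2 cells, the surfactant-producing cells that carry most of this message, accounted for 30 of the 53 saline and 46 of the 51 NP cells. Within alveolar type 2 cells the levels were 1613 and 2252 (log2 0.48, 0.35 to 0.61), so the ratio was smaller once the airway cells were left out. The median of all genes tested was at log2 0.20 in epithelial cells, and scaling by median-of-ratios factors, which differed from the total count by log2 0.30, gave 0.84 for the chain sum. Among epithelial cells 3 of 4 members were past 2-fold, beside 10.0% of 747 genes, and in alveolar type 2 cells 0 of 4, beside 0.728% of 687. Cells with a UMI of a B or dendritic cell marker were 16.98% and 35.3% of epithelial cells, and without them the log2 ratio was 1.36.

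Cd74, the invariant chain gene (chr18:60803848-60812652 in GRCm38), followed the chains but not in a fixed proportion. In endothelial cells it had 422 UMIs in the saline and 12531 in the NP library, or 325 and 2451 CPM (log2 2.92, 2.77 to 3.06). The share of endothelial cells with a Cd74 UMI was 29.7% and 84.0%, and 14.9% (10.98 to 19.5) and 72.3% (69.6 to 74.99) after thinning. Endothelial cells had 85.3 Cd74 UMIs per 100 chain UMIs (74.7 to 97.3) with saline and 126 (123 to 129) with NP. In monocytes the same ratio was lower in the NP library, at 99.9 (97.8 to 102) and 88.1 (87.1 to 89.1). The 2 classes thus differed in direction beyond counting error, a difference with no replicate check. The Cd74 level of monocytes was at 1455 and 2700 CPM (log2 0.89, 0.87 to 0.92), not weighted for the mix of clusters. In the Cxcl9 cluster of monocytes Cd74 was lower in the NP library, at 9111 and 7358 CPM. It was also lower in the small Ly6a cluster (4866 and 2325) and higher in the other monocyte clusters. B cells were at 10480 and 11070, alveolar type 2 cells at 3199 and 3982, and conventional dendritic cells at 18820 and 16450 (log2 -0.19). Epithelial cells had a higher proportion than endothelial cells and monocytes, with 202 and 178 Cd74 UMIs per 100 chain UMIs.

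**Figure D4:**
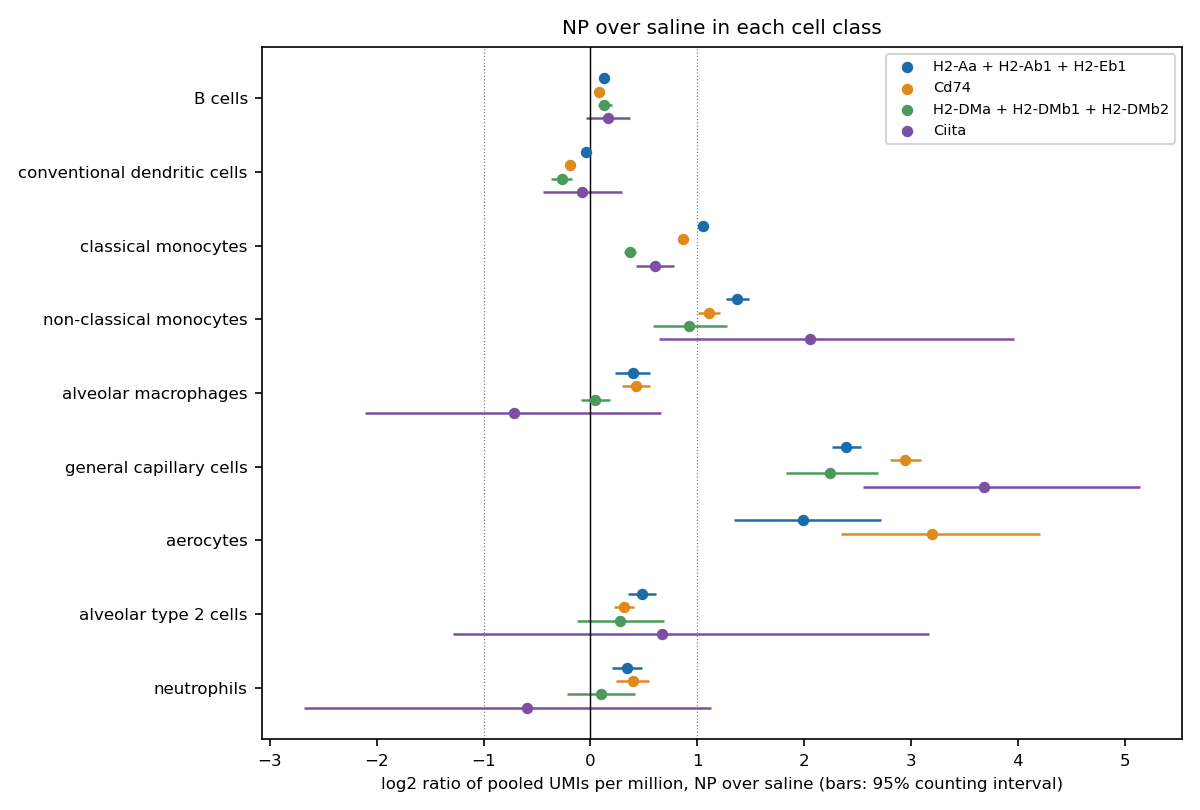
Log2 ratio of NP over saline with its 95% counting interval for the chain sum, Cd74, the H2-DM sum and Ciita in 9 cell classes. Dotted lines mark a 2-fold difference, and a value with under 3 UMIs in a library is not drawn. All 4 measures are past 2-fold in general capillary cells, and those of B cells and conventional dendritic cells lie near 0. In aerocytes only the chain sum and Cd74 are drawn, each past 2-fold.

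Ciita, the transactivator, was rare in UMIs, and its reads cannot be assigned to one of its promoters. Endothelial cells held 6 Ciita UMIs in the saline library, in 6 of 293 cells (2.05%, interval 0.76 to 4.40), and 301 in the NP library, in 215 of 1102 cells (19.5%). The level was 4.62 and 58.9 CPM (log2 3.67, 2.53 to 5.13), and all 6 saline UMIs and 289 of the NP UMIs were in general capillary cells. Aerocytes had 0 and 8 Ciita UMIs. After thinning to 1000 UMIs, Ciita was found in 0 of 289 saline endothelial cells, an interval of up to 1.27%, and in 6.57% of NP cells (5.17 to 8.21). Per 1000 chain UMIs, endothelial cells had 12.1 and 30.3 Ciita UMIs, the saline value resting on 6 UMIs.

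In B cells, conventional dendritic cells and monocytes, Ciita differed less between the libraries than in endothelial cells. B cells had 108 and 120.5 CPM (log2 0.16, -0.04 to 0.37), with a UMI in 44.5% and 46.6% of cells. Conventional dendritic cells had 178 and 169 CPM (log2 -0.08, -0.45 to 0.29). Monocytes had 29.3 and 43.8 (log2 0.58, 0.40 to 0.76), in 21.2% and 30.4% of cells. The NP level of endothelial cells, 58.9 CPM, therefore stood above that of monocytes and below that of B cells. Non-classical monocytes had 4 and 84 Ciita UMIs (log2 2.06, 0.65 to 3.96). In the Cxcl9 cluster of monocytes, 125 of 991695 saline and 530 of 5088292 NP UMIs were of Ciita. The Ciita ratio of monocytes was not weighted for the mix of clusters. Alveolar macrophages had 11 and 10 UMIs, stromal cells 0 and 3, alveolar type 2 cells 3 and 10, and neutrophils 12 and 4.

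The H2-DM genes load peptide, and H2-DMb1 and H2-DMb2 are near-identical neighbours whose reads may have been split or dropped by the counting, so their sum is given too. In endothelial cells H2-DMb1 had 20 and 625 UMIs, or 15.4 and 122 CPM (log2 2.99, 2.35 to 3.71), and was detected in 5.46% and 34.8% of cells. H2-DMa, which encodes the alpha chain, was at 25.4 and 66.1 CPM (log2 1.38, 0.86 to 1.94). H2-DMb2 had 3 and 13 UMIs, which gave log2 0.14 (-1.72 to 2.59). The alpha chain had the smallest ratio of the 7 measured members in endothelial cells, and the 3 genes together were at 43.1 and 191 CPM (log2 2.15, 1.76 to 2.56).

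H2-DMa stood apart from the chains in myeloid cells. It was found in 84.2% of saline and 86.7% of NP monocytes, at 278 and 323 CPM (log2 0.21, 0.16 to 0.27). In alveolar macrophages it was found in 91.6% and 90.2% of cells, at 223 and 213 CPM. H2-DM UMIs per 100 chain UMIs were accordingly 25.5 and 15.1 in monocytes and 156 and 122 in alveolar macrophages, against 10.6 and 10.7 in B cells. H2-DMb1 in monocytes was at 86.2 and 130 CPM (log2 0.59, 0.49 to 0.69), and in dendritic cells it was lower in the NP library (1236 and 689, log2 -0.84, -0.98 to -0.71). Within conventional dendritic cells the value of H2-DMb1 was log2 -0.35 (-0.49 to -0.21).

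H2-DMb2 took a larger share of the H2-DMb1 and H2-DMb2 UMIs in B cells than in the other classes of this paragraph. In B cells 81.2% (saline) and 80.8% (NP) of the H2-DMb1 and H2-DMb2 UMIs were its own, at 529 and 591 CPM, and 7.31% and 6.40% in monocytes. The share was 7.02% and 11.5% in dendritic cells, and 44.9% (34.4 to 55.9) and 18.7% (13.6 to 24.6) in alveolar macrophages, where 89 and 209 UMIs were counted. In NP endothelial cells it was 2.04% (1.09 to 3.46), of 638 UMIs. The split between these paralogs rests on the authors' counting.

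H2-Oa and H2-Ob encode the inhibitor. B cells held 423 of the 589 saline and 558 of the 751 NP UMIs of H2-Oa, and 520 of 633 and 681 of 808 of H2-Ob. They had H2-Oa at 125 and 153 CPM (log2 0.29, 0.11 to 0.48) and H2-Ob at 154 and 187 (log2 0.28, 0.11 to 0.45). Per 100 H2-DM UMIs, B cells had 27.1 (25.2 to 29.1) and 30.2 (28.3 to 32.1) H2-O UMIs, dendritic cells 4.71 and 5.54, and monocytes 0.31 and 0.58. Endothelial cells had 1 and 2 H2-O UMIs in all against 56 and 976 H2-DM UMIs, so the NP value was 0.20 (0.025 to 0.74) per 100. The inhibitor thus had no more than 1 UMI per gene and library in endothelial cells, and the interval of the NP proportion did not reach that of B cells. Conventional dendritic cells had H2-Oa at 65.0 and 80.2 CPM and H2-Ob at 43.8 and 42.2.

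Co-detection was read from H2-Aa, H2-Ab1, H2-Eb1 and Cd74 in the same cell, with each cell thinned to 1000 UMIs. All 4 were found in 2 of 289 saline endothelial cells (0.69%, 0.084 to 2.48) and in 173 of 1081 NP endothelial cells (16%, 13.9 to 18.3). None of the 4 was found in 68.5% and 17.1%. General capillary cells had all 4 in 0.84% and 19.4%, and aerocytes in 0 of 31 and 0 of 141 cells, which leaves shares of up to 11.2% and 2.58%. Without thinning, the shares of all endothelial cells were 7.51% and 55.4%. Monocytes had all 4 in 8.45% (6.62 to 10.6) and 17.9% (16.03 to 19.96), B cells in 82.8% and 86.6%, and conventional dendritic cells in 88.4% and 79.2%. In T cells the shares were 0.98% and 0.95%, and in neutrophils 0.036% and 0.13%, so the saline endothelial share lay at the T cell background and the NP share above it.

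**Figure D5:**
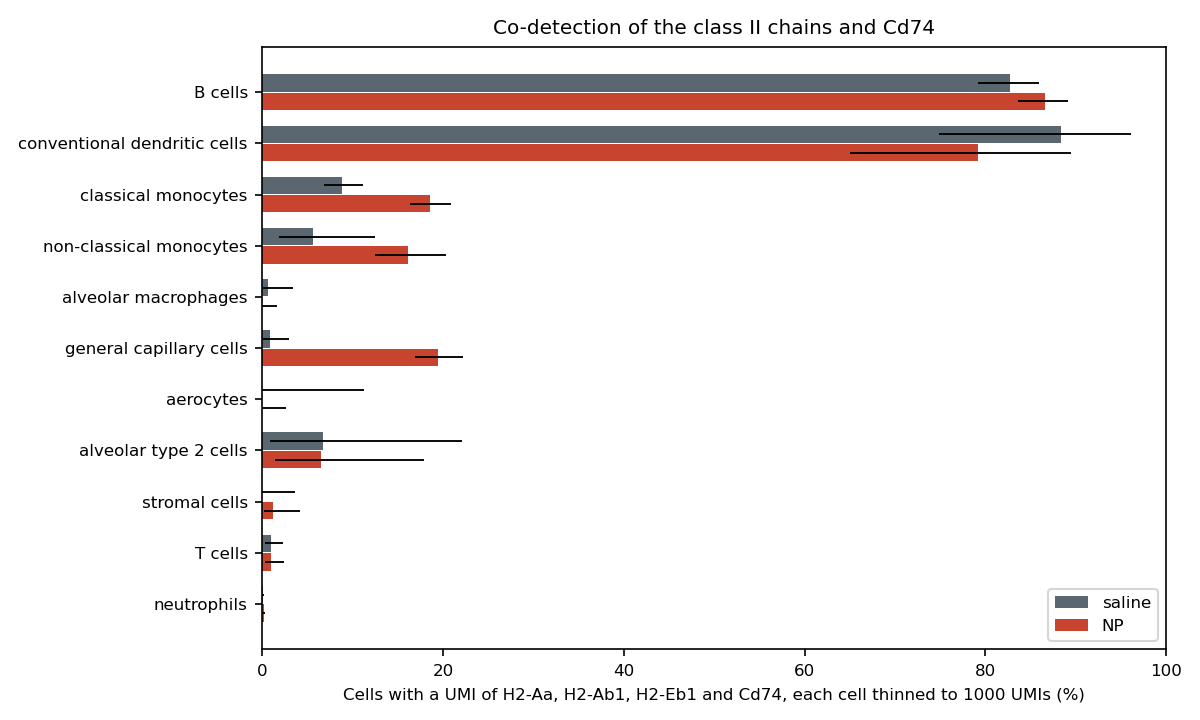
Share of cells with at least 1 UMI each of H2-Aa, H2-Ab1, H2-Eb1 and Cd74 after thinning every cell to 1000 UMIs, by class and library, with 95% Clopper-Pearson intervals. General capillary cells go from 0.84% to 19.4% and classical monocytes from 8.81% to 18.5%. Aerocytes are at 0 and B cells lie above 82% in both libraries.

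The makeup of partly positive cells also differed. Among thinned endothelial cells, a chain without Cd74 was seen in 16.6% of saline and 10.5% of NP cells, and Cd74 without a chain in 5.19% and 11.5%. Of endothelial cells with H2-Ab1, 37.5% (24.9 to 51.4) in the saline and 89.5% (86.6 to 91.9) in the NP library also had Cd74. H2-Aa was found in 17.9% and 50.3% of them, and H2-Eb1 in 14.3% and 56.0%. In monocytes 93.6% and 95.2% of cells with H2-Ab1 had Cd74, 76.0% and 82.7% had H2-Aa, and 61.6% (52.5 to 70.2) and 71.2% (66.5 to 75.5) had H2-Eb1. Each of these differences was smaller than that of the same pair in endothelial cells. Of all thinned endothelial cells, 43 of 289 saline and 782 of 1081 NP cells had Cd74. A higher level by itself raises such shares, and thinning matches depth and not level. The shares are therefore not read apart from the level of the genes. Ciita was co-detected with H2-Ab1 in 0 of 56 saline and 48 of 561 NP endothelial cells (8.56%). Without thinning, 75.3% of 215 NP endothelial cells with a Ciita UMI had all 4 genes, and 50.5% of 887 without one. In NP monocytes these shares were 63.7% and 23.6%, and in saline monocytes 52.6% and 6.94%. Depth was not matched between cells with and without Ciita.

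The other genes of the pathway were counted from a list of 30 genes in the matrix, covering peptide processing, transcription factors of the class II promoters, trafficking and costimulation. In endothelial cells 25 had at least 20 UMIs, and 1 was at least 2-fold higher in the NP library, beside 2.34% of the 10699 genes with as many UMIs. It was Ctss, the cathepsin that trims the invariant chain, with 5 and 47 UMIs (log2 1.26, -0.07 to 2.94). The median log2 ratio of the 25 was -0.07, against -0.05 for those 10699 genes. Irf1, an interferon-induced transcription factor, was at 209 and 294 CPM in endothelial cells (log2 0.49, 0.30 to 0.68). Rfx5, Rfxap and Rfxank, which encode the factor that binds the X box, were at log2 0.18 (-0.89 to 1.40), -0.36 (-0.81 to 0.12) and 0.25 (-0.40 to 0.95), with 9 to 53 saline UMIs. None of these 3 was past 2-fold, and the interval of Rfx5 reached beyond it.

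In monocytes 29 of the listed genes were measured and 1 passed 2-fold, beside 3.91% of 11554 genes. It was Irf1 (80.9 and 178 CPM, log2 1.14, 1.04 to 1.24), and the median of the list was 0.00. Cd40, which encodes a receptor that licenses antigen-presenting cells, was at 20.5 and 40.9 CPM (log2 1.00, 0.79 to 1.21), just under the limit. Irf1 was also the 1 of 29 in B cells (81.2 and 166.5 CPM, log2 1.04), beside 1.5% of 9776 genes. In dendritic cells 4 of 27 passed, the proteases Ctsb, Ctsd and Lgmn and the receptor Cd40 (20.6 and 139 CPM, log2 2.76, 2.00 to 3.63), beside 7.24% of 7360 genes. None of 26 was 2-fold higher in conventional dendritic cells, beside 2.81% of 6467. In alveolar macrophages 2 of 28 passed, the costimulatory ligands Cd80 (7 and 41 UMIs) and Cd86 (15 and 48 UMIs), beside 1.46% of 9848 genes. In stromal cells 3 of 25 were 2-fold higher, beside 3.63% of 8065 genes, and 1 lower, beside 3.51%. The 3 were Ctss (4 and 76 UMIs), Ifi30 (17 and 96) and Irf1 (22 and 104), and the lower 1 was Rfxank (15 and 12). In epithelial cells 4 of 19 were 2-fold higher, Lgmn, Creb1, Irf1 and March8, beside 1030 of 6551 genes. Ctss was the 1 that was 2-fold lower, beside 231 of the 6551. At its saline level in both libraries, Cd80 in alveolar macrophages would not have reached the filter of 20 UMIs. The same held for Ctss in stromal cells and for Creb1 and March8 in epithelial cells. The counts of listed genes 2-fold higher in these classes are therefore not read against the shares of all genes.

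Over 35 values from 21 classes with at least 20 cells, the genes whose pattern was most like that of H2-Ab1 were H2-Eb1 (Pearson r 0.99 on log2 of CPM plus 1), H2-Aa (0.98), Cd74 (0.96), H2-DMb1 (0.94) and Ciita (0.93). Those most like Ciita were H2-Ab1 (0.93), H2-Eb1 (0.93), H2-Aa (0.93), H2-DMb1 (0.92) and Cd74 (0.89). H2-Oa had r 0.34 and H2-Ob 0.54 with H2-Ab1. The values share libraries and cell classes, some classes contain others, and the correlations are descriptions.

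Classes that should lack the genes set the floor for these values. Neutrophils were at 21.6 and 27.4 chain CPM, with 394 of the 1038 saline UMIs in 1 cell, and none of 4 measured members was 2-fold higher, beside 1.82% of 7258 genes. T cells were at 238 and 141, with 425 of 857 saline UMIs in 1 cell, and none of 5 was 2-fold higher, beside 0.256% of 3899. NK cells were at 31.7 and 200 (21 and 184 UMIs), with 127 of the NP UMIs in 1 cell. Erythroid cells had 4 and 218 chain UMIs in 36 and 43 cells, and Cd74, the 1 member measured in them (0 and 257 UMIs), was past 2-fold higher, beside 4.18% of 359 genes, a call that the filter fixed since the saline count was 0. Of endothelial cells, 0.34% and 2.90% had a UMI of a B or dendritic cell marker, and the B cell markers summed to 32.3 and 44.0 CPM. With those cells left out, the log2 ratio of the endothelial chain sum was 2.35, as before.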

How the data were processed

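Per the labels, lungs of saline-treated and NP-treated mice were dissociated and sequenced as single cells, 1 library per group. The authors made the reads into raw UMI counts per gene and barcode with Cell Ranger (6.0 in the submitters' processing notes, Cell Ranger 4 in the file headers) on mm10, and deposited 1 unfiltered count matrix per library with 91168129 and 90081747 UMIs. No column went unused. The members, lists and tests were chosen with earlier results of these data known.

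From these counts, cells with 500 to 5000 genes and under 7.5% mitochondrial UMIs were kept, log-normalized, and clustered with scanpy 1.11.5 (2000 variable genes without the members, 30 components, 20 neighbors, Leiden resolution 1). Clusters were named from marker lists with at least 3 detected markers. UMIs were summed by class and library and scaled to the total. Ratios have exact conditional binomial intervals, levels exact Poisson and shares Clopper-Pearson intervals at 95%, a count under 3 being set to 3 in a ratio. No p-value was computed, since cells are not replicates. The scripts were tested on simulated data. Genes named are the 10 members, listed pathway genes past 2-fold (up to 5 in a class), the 5 genes most like H2-Ab1 and Ciita, and markers. Irf1, Cd40 and the Rfx genes were named outside that rule where they were not past 2-fold, after their values were seen. Doublets were not removed: Scrublet marked 1 saline cell, which means it did not work there, and 311 NP cells. Alternatives covered the cell limits, doublets, clustering, class assignment, free RNA, scaling, cell weight, thinning and single cells. Gene positions came from GENCODE on GRCm38 and promoters from RefSeq on GRCm38.p6. The X box letters were shortened to AACNNATG after the windows had been read with a longer pattern.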

Additional observations from a re-analysis of the deposited data

Results flagged for a closer look

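The chain sum of H2-Aa, H2-Ab1 and H2-Eb1 in dendritic cells had a log2 ratio of -0.31 (22870 CPM with saline and 18410 with NP), opposite in sign to monocytes, B cells, alveolar macrophages, endothelial cells, stromal cells and epithelial cells. The difference between these classes was not tested, since each group is 1 library. Mature dendritic cells were 4 of 47 saline and 33 of 81 NP cells, and conventional dendritic cells alone gave -0.04.

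Barcodes with under 50 UMIs, which enter no class, held 2051 chain CPM in the NP library and 789 in the saline library. Cd74 in them was at 1949 and 777 CPM, and Ciita at 22.8 and 8.96.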

How the results depend on the processing

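No paired analysis was possible because each group is 1 library. Of 146 alternatives of the class summaries, 101 stayed within the counting interval or, for the count of members past 2-fold, within 1.5-fold of the main count. The log2 ratio of the chain sum stayed past 2-fold in endothelial cells under each of 17 alternatives (2.12 to 2.56), and was positive in monocytes under each of 16 (0.28 to 1.30). With 800 genes as the lower limit it was -0.25 in dendritic cells, 0.055 in B cells and 2.63 in stromal cells. With a mitochondrial limit of 5% it was 1.14 in monocytes, -0.21 in dendritic cells, 0.19 in alveolar macrophages, 2.56 in endothelial, 0.99 in stromal and 1.31 in epithelial cells. At Leiden resolution 0.5 monocytes gave 1.03 and dendritic cells -0.23, and at 2 endothelial cells gave 2.14. With the members among the variable genes B cells gave 0.16. Cells classed by their own marker score gave 1.30 in monocytes, 0.19 in dendritic cells, 0.10 in B cells, 2.12 in endothelial, 3.06 in stromal and 1.51 in epithelial cells. Without doublets B cells gave 0.24 and stromal cells 4.08, and with 1 doublet threshold, chosen after seeing the data, B cells 0.0396, alveolar macrophages 0.72 and stromal cells 4.04. Without cells carrying B or dendritic cell markers monocytes gave 0.97, alveolar macrophages 0.72 and epithelial cells 1.36. With free RNA subtracted stromal cells gave 6.67. Median-of-ratios scaling gave 1.11 in monocytes, -0.23 in dendritic, 0.17 in B and 0.84 in epithelial cells, and TMM 1.12, -0.23, 0.15 and 0.85. The mean of the cells' own levels gave 1.02 in monocytes, 0.037 in B cells, 0.22 in alveolar macrophages and 3.92 in stromal cells. Further alternatives were chosen after seeing the data. Monocytes weighted to the saline clusters gave 0.28, conventional dendritic cells alone -0.041, and epithelial cells without the top cell 1.31. General capillary cells without the cluster led by Gbp5 and Iigp1 gave 2.30. With free RNA scaled by the lowest of 3 genes, endothelial cells gave 2.37. The log2 ratio of the endothelial co-detection share, 3.95 with the 2 saline cells set to 3, was 1.71 at 500 UMIs per cell and 0.90 with 2 UMIs of each gene, both against 0 saline cells and so bounds. H2-Aa in stromal cells turned to -0.45 with the 5% limit, on 3 saline UMIs.

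Of 762 alternatives of single members in a class, 628 stayed within counting error. Of 213 on the 15 pairs of a member and a class past 2-fold, 201 were still past it. The 15 pairs were picked as past 2-fold in these same counts, and the alternatives reuse the same UMIs. Among them are calls that the filter fixed, such as Ciita in endothelial cells and Cd74 in stromal cells. The 201 are therefore no independent check of the pairs. Counts of all genes at least 2-fold higher in NP rest on the filter of 200 UMIs. With at least 20 UMIs, no filter and a 1.5-fold limit in turn, the counts were 452, 561 and 318 in monocytes (133 as reported), 533, 690 and 187 in dendritic (110), 147, 359 and 37 in B cells (6), 144, 265 and 37 in alveolar macrophages (5), 250, 250 and 96 in endothelial (40), 293, 555 and 33 in stromal (12) and 1030, 1625 and 211 in epithelial cells (75). Genes 2-fold lower in dendritic cells were 368, 932 and 96 (15). The cause of the moves of the members and class sums was not tested. Members with under 3 UMIs in a library, and free RNA in epithelial cells, gave no value.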

Other observations

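Cells left without a class name held the members too. A cluster led by Ager, Emp2 and Epas1, with 138 saline and 421 NP cells of low depth (median 1401.5 and 1401 UMIs), was at 504 and 1787 chain CPM (log2 1.83, 1.62 to 2.04) and at 539 and 2009 Cd74 CPM. Another, with the endothelial genes Cdh5, Plvap and Gpihbp1 in front, had 31 and 81 cells and was at 166 and 918 chain CPM (log2 2.47, 2.12 to 2.84). A small cluster of 4 and 22 cells among the endothelial cells was led by the B cell genes Cd79a and Ms4a1 and was at 5442 and 8079. A cluster with the mural genes Cox4i2 and Postn, of 12 and 57 cells, was at 551 and 1064 (log2 0.95, 0.53 to 1.39).

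H2-Oa was also seen in basophils. They held 21 H2-Oa UMIs in 21 saline cells and 4 in 39 NP cells, with 2 and 8 chain UMIs and 0 and 1 H2-Ob UMIs. A H2-Oa UMI was present in 42.9% of the saline and 10.3% of the NP basophils.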
